A study of Mus musculus with 14 samples.

Results

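The genes of 10 ionotropic glutamate receptor subunits were followed by their Entrez identifiers, of 24100 genes in the count table: 6 NMDA receptor subunits (Grin1, Grin2a, Grin2b, Grin2c, Grin2d and Grin3a) and 4 kainate receptor subunits (Grik1, Grik2, Grik3 and Grik5). All 10 were found, and all 10 had enough counts to be tested in every comparison. The RNA came from the cerebellum of mice at postnatal day 21, either Astn2 wild type (WT) or Astn2 knockout (KO) littermates. Every mouse, WT controls included, also carried Tg(Pcp2-L10a-EGFP), which places a GFP-tagged ribosomal protein under the Pcp2 promoter, active in Purkinje cells. Ribosomes were pulled down with anti-GFP antibodies (TRAP, translating ribosome affinity purification), and a small part of each cleared homogenate was kept back as input, which stands for whole cerebellum. The 14 libraries form 4 groups: input WT (n = 4, 1 female and 3 male), input KO (n = 3, 2 female and 1 male), TRAP WT (n = 3, 1 female and 2 male) and TRAP KO (n = 4, 2 female and 2 male). The labels do not say which libraries come from which animal, so p-values measure the spread between these libraries.

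NMDA and kainate receptors are tetrameric glutamate-gated cation channels. An NMDA receptor needs the GluN1 subunit (Grin1), usually with GluN2 subunits (Grin2a to Grin2d) that set its kinetics and its magnesium block, while GluN3 subunits (Grin3a, Grin3b) lower its calcium permeability. Of the kainate subunits, GluK1 to GluK3 (Grik1 to Grik3) can form channels on their own, and GluK4 and GluK5 (Grik4, Grik5) are high-affinity partners that need one of those. In the cerebellum, mature granule cells are known for GluN2A and GluN2C receptors, and Purkinje cells carry climbing fibre inputs with a kainate receptor component and few functional NMDA receptors in the weeks after birth.

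Total counts ran from 18799609 to 54229183 per library, and a level of 3 counts corresponded to 0.0553 to 0.160 CPM (counts scaled to a library of 1000000) by library totals alone. The CPM levels below are also divided by each library's TMM factor, 0.7245 to 1.324. With that factor, the 3 Grin2a counts in TRAP KO replicate 1 are 0.117 CPM. In input, Astn2 stood at 88.7 to 104 CPM in WT and 0.729 to 0.968 CPM in KO. In TRAP it stood at 117 to 146 CPM in WT and 1.06 to 2.11 CPM in KO, so each library fitted its genotype label. All 11 Purkinje cell markers were higher in TRAP than in input in both genotypes, and their summed level was 73280 to 78920 CPM in TRAP WT against 5272 to 5713 CPM in input WT. All 10 granule cell markers were lower in TRAP, with log2 fold changes between -3.03 and -1.79 in WT and between -2.80 and -1.47 in KO. Their summed level was 6341 to 6713 CPM in input WT and 6331 to 6624 CPM in input KO. In TRAP it was 1119 to 1709 CPM in WT and 980 to 1756 CPM in KO. No granule cell marker had 0 counts in all libraries of a group. All markers of inhibitory interneurons (8), astroglia (8) and the oligodendrocyte lineage (6) were lower in TRAP too. None of them had 0 counts in all libraries of a group. Of 3 cerebellar nuclei markers, 2 were lower and 1 (Nefm) higher. Markers of each cell type other than Purkinje cells were thus still counted in every TRAP library. Whether that RNA came from those cells was not tested, nor was its part in the TRAP levels of the receptor genes below.

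In TRAP against input, Grik1 was the 1 subunit gene of 10 that rose, 8 fell, and Grin1 did not pass the test, in WT and in KO alike. Grik1 had about 7-fold higher CPM in TRAP (767% of the input mean in WT and 728% in KO), whereas Grin2a in TRAP stood at 3.56% and 3.31% of its input mean. Grin1, the gene of the obligatory NMDA receptor subunit, kept 87.9% of its input mean in WT TRAP and 105% in KO TRAP. Across all 16042 genes tested, 38.5% were lower and 37.0% higher in WT, and 39.6% lower and 36.3% higher in KO (edgeR's quasi-likelihood test, Benjamini-Hochberg adjusted p under 0.05). The median log2 fold change of the 10 genes was -2.11 in WT and -1.89 in KO, beside -0.088 and -0.111 over all genes tested. Scaling by library totals in place of TMM moved the median of all genes by -0.82 in WT and -0.734 in KO, and turned the calls over all genes to 3135 higher and 9801 lower in WT (5937 and 6181 with TMM), and to 3132 higher and 9670 lower in KO (5817 and 6359 with TMM). In these bulk samples, fewer cells of a type and less RNA per cell cannot be told apart.

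**Figure D1:**
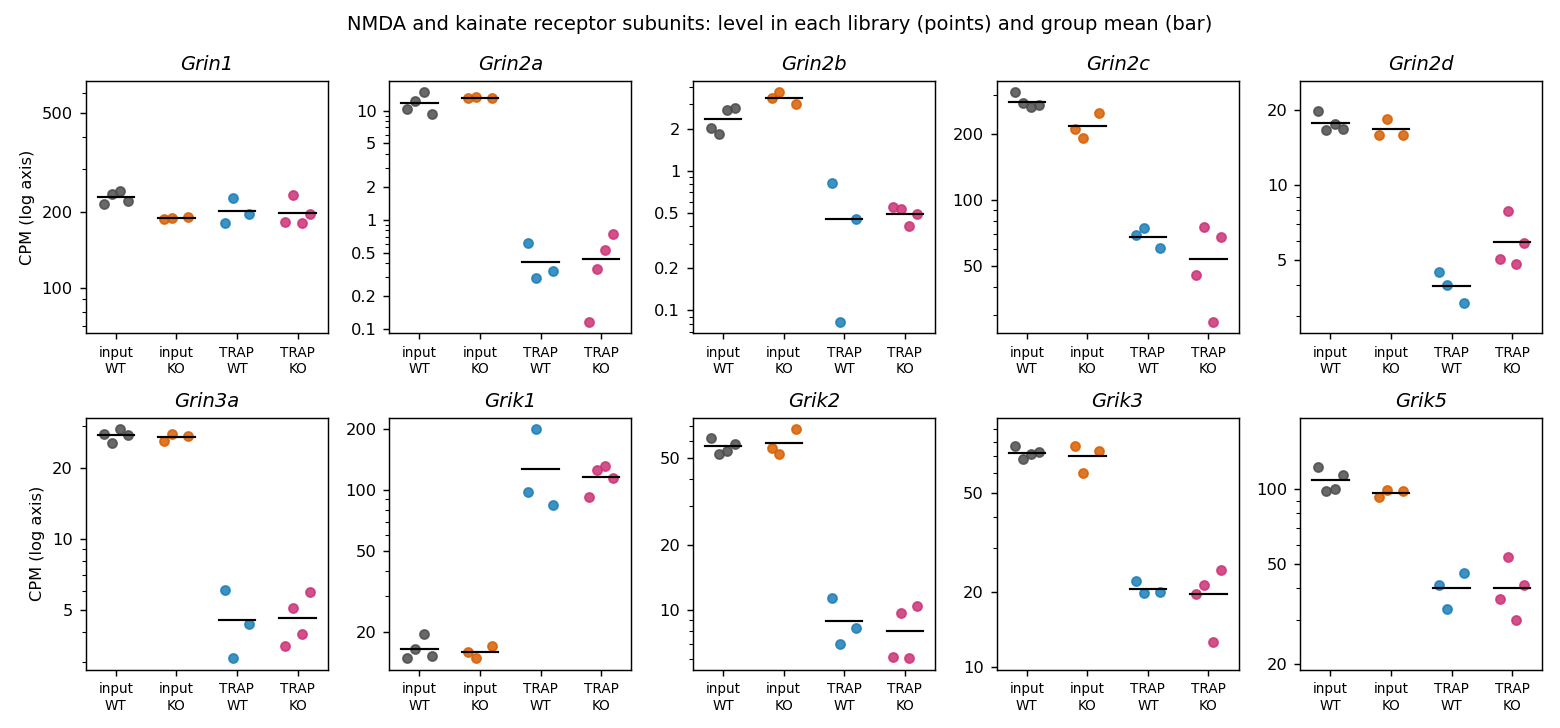
Level of each of the 10 subunit genes in CPM (log axis) in every library (points) of input WT, input KO, TRAP WT and TRAP KO, with the group mean as a bar. Grik1 is higher in every TRAP library than in every input library, 8 genes are lower in every TRAP library, and the Grin1 points of TRAP and input overlap. How many of all genes separate the fractions in this way was not counted. Of all genes tested, 38.5% were called lower and 37.0% higher in TRAP in WT, and 39.6% and 36.3% in KO.

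Grin1 (Entrez 14810, chr2:25291181-25319187, minus strand, GRCm38) was 1 of the 2 highest subunit genes per length in both fractions. Its level in input WT was 217, 222, 238 and 244 CPM, and in TRAP WT 182, 197 and 228 CPM. In TRAP KO it was 182, 197, 235 and 181 CPM, against 188.5, 192.0 and 189.6 CPM in input KO. The TRAP and input libraries overlapped in both genotypes. The log2 fold change was -0.18 ± 0.11 (SE) in WT (95% interval -0.41 to 0.05, adjusted p = 0.147) and 0.04 ± 0.11 in KO (-0.19 to 0.28, adjusted p = 0.725). Both small differences depended on the scaling: with library totals Grin1 was lower in TRAP, at -1.0 in WT and -0.69 in KO, and with offsets for transcript length it was at 0.08 in WT and 0.29 in KO (adjusted p = 0.0213). The WT difference also passed the threshold without TRAP WT replicate 3 (-0.29, adjusted p = 0.0297), with a mean count of at least 50 (-0.39) and with quality weights (-0.25).

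Grin2c (Entrez 14813, chr11:115249169-115267243, minus strand) encodes GluN2C, a subunit known for receptors with weak magnesium block in mature granule cells. It had 309, 272, 278 and 265 CPM in input WT and 210.5, 249.8 and 192 CPM in input KO. TRAP WT held 69.6, 60.5 and 74.4 CPM, and TRAP KO 45.6, 68.1, 75.1 and 28.0 CPM. No TRAP library reached the input range, and the fall was -2.05 ± 0.26 in WT (adjusted p = 6.7e-06) and -1.98 ± 0.24 in KO (adjusted p = 6.14e-06). The lowest TRAP KO library for Grin2c, replicate 4, also had the lowest summed granule cell markers, 980 CPM beside 1329, 1756 and 1743 CPM in replicates 1 to 3. TRAP WT went the other way. There replicate 3 had the highest Grin2c (74.4 CPM) and the lowest summed markers, 1119 CPM beside 1709 and 1422 CPM in replicates 1 and 2. The relation of Grin2c to these markers was not tested.

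Grin2a (Entrez 14811, chr16:9567898-9995560, minus strand) encodes GluN2A, the other GluN2 subunit of mature granule cells, and had the largest fall of the 10. Input held 10.3, 9.30, 12.3 and 14.6 CPM in WT and 13.1, 13.0 and 13.3 CPM in KO. TRAP held 0.615, 0.338 and 0.290 CPM in WT, which are 9, 6 and 7 counts. TRAP KO held 0.117, 0.737, 0.352 and 0.531 CPM, which are 3, 21, 6 and 12 counts. With so few counts the TRAP level was near the detection floor, and the 1 library with 3 counts was at it. The log2 fold change was -4.87 ± 0.39 in WT (adjusted p = 7.92e-08) and -4.88 ± 0.34 in KO (adjusted p = 2.27e-08), below the -3.03 of the lowest granule cell marker in WT. No test was made of Grin2a against those markers, and it stood at -3.59 with length offsets and -4.25 with quality weights in WT.

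Grin2b (Entrez 14812, chr6:135713233-136173511, minus strand) encodes GluN2B, which predominates in the young brain and gives way to other GluN2 subunits in maturing granule cells. It was the lowest of the 10 genes per length in input, with 2.02, 2.80, 1.82 and 2.71 CPM in WT and 3.31, 2.99 and 3.63 CPM in KO. TRAP WT held 0.820, 0.450 and 0.0829 CPM, the last from 2 counts, and TRAP KO held 0.546, 0.491, 0.528 and 0.398 CPM. Grin2b fell in TRAP by 2.51 ± 0.44 in WT (adjusted p = 0.000135) and by 2.74 ± 0.37 in KO (adjusted p = 1.54e-05) on the log2 scale. The WT call was lost with length offsets (-0.99, adjusted p = 0.063), and quality weights gave -1.60. Its size also rested on single libraries, at -3.25 without TRAP WT replicate 1 and -1.91 without TRAP WT replicate 3.

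Grin2d (Entrez 14814, chr7:45831883-45878378, minus strand) encodes GluN2D, a subunit of slowly closing receptors found in some interneurons and in early development. It had 19.8, 16.9, 16.6 and 17.7 CPM in input WT and 15.9, 15.9 and 18.5 CPM in input KO. TRAP WT held 4.51, 3.38 and 3.98 CPM and TRAP KO 5.07, 5.86, 7.92 and 4.82 CPM. It was lower in TRAP by 2.17 ± 0.18 in WT (adjusted p = 1.27e-07) and by 1.51 ± 0.17 in KO (adjusted p = 1.84e-06). Grin3a (Entrez 242443, chr4:49661611-49845744, minus strand), the GluN3A gene, had 27.8, 27.4, 25.5 and 29.1 CPM in input WT and 25.9, 27.2 and 27.8 CPM in input KO. Its TRAP levels were 6.08, 4.33 and 3.11 CPM in WT and 3.51, 5.93, 5.10 and 3.94 CPM in KO. No TRAP library reached an input library for either gene, and Grin3a fell by 2.65 ± 0.21 in WT (adjusted p = 7.3e-08) and by 2.53 ± 0.19 in KO (adjusted p = 5.45e-08).

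Of the 4 kainate members, the gene with the lowest level per length in input had the highest in TRAP. This gene, Grik1 (Entrez 14805, chr16:87895900-88290265, minus strand), which encodes GluK1, had 15.0, 15.2, 16.6 and 19.7 CPM in WT and 15.9, 17.0 and 14.9 CPM in KO. TRAP held 98.2, 84.2 and 199.6 CPM in WT and 92.2, 115, 126 and 131 CPM in KO. Every TRAP library was above every input library, and TRAP WT replicate 3 stood well above the others. The rise was 2.95 ± 0.23 in WT (adjusted p = 6.54e-08) and 2.81 ± 0.25 in KO (adjusted p = 2.55e-07), inside the 1.57 to 4.99 range of the Purkinje cell markers in WT. Without TRAP WT replicate 3 the WT value was 2.46. The call held in all 23 alternative analyses, between 2.13 and 3.15 in WT and between 2.08 and 2.92 in KO.

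Grik2 (Entrez 14806, chr10:49094833-49788766, minus strand), the GluK2 gene, had 61.7, 58.2, 52.0 and 53.8 CPM in input WT and 55.2, 67.8 and 52.1 CPM in input KO. TRAP WT held 11.4, 8.33 and 7.01 CPM, and TRAP KO 6.12, 10.5, 9.68 and 6.02 CPM. It fell by 2.70 ± 0.21 in WT (adjusted p = 4.51e-08) and by 2.82 ± 0.19 in KO (adjusted p = 1.89e-08). The WT value lay inside the range of the granule cell markers in WT, and the KO value just below their lowest in KO (-2.80). Grik3 (Entrez 14807, chr4:125490700-125714173, plus strand), the GluK3 gene, had 77.0, 72.9, 68.4 and 71.4 CPM in input WT and 77.0, 73.3 and 60.0 CPM (59.95) in input KO. Its TRAP levels were 22.2, 19.9 and 19.7 CPM in WT and 19.6, 24.5, 21.4 and 12.7 CPM in KO. Grik3 fell by 1.84 ± 0.16 in WT (adjusted p = 1.31e-07) and by 1.80 ± 0.15 in KO (adjusted p = 1.02e-07).

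Grik5 (Entrez 14809, chr7:25009849-25072346, minus strand), the high-affinity GluK5 gene, had the highest input level per length of the kainate members. It stood at 122, 114, 98.4 and 100.2 CPM in WT and 92.9, 98.7 and 99.3 CPM in KO. TRAP held 41.3, 46.2 and 33.2 CPM in WT and 36.2, 41.1, 53.4 and 29.9 CPM in KO, with no overlap with input. Its fall was the smallest of the 8 without length offsets, at -1.44 ± 0.18 in WT (adjusted p = 6.01e-06) and -1.27 ± 0.17 in KO (adjusted p = 1.39e-05). With length offsets, the falls of Grin2c, Grin2d, Grin3a, Grik2, Grik3 and Grik5 shrank to between -1.85 and -0.89 in WT and between -1.81 and -0.84 in KO, and all kept their calls. The long transcripts of Grik2, Grik3 and Grin3a (9.43, 8.97 and 7.49 kb) moved the most of these 6.

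**Figure D2:**
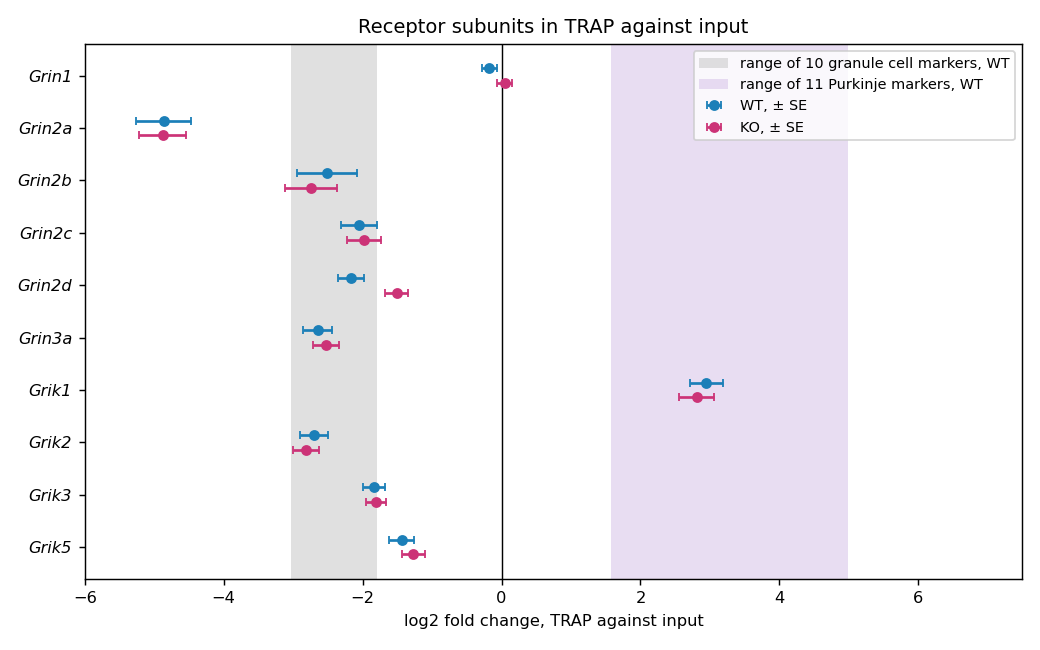
Log2 fold change of TRAP against input for each subunit gene in WT and KO (points, with SE bars). Shaded bands span the WT fold changes of the 10 granule cell markers (-3.03 to -1.79) and the 11 Purkinje cell markers (1.57 to 4.99). Grik1 lies in the Purkinje cell band, Grin1 near 0, and Grin2a below the granule cell band.

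Levels of different genes can be compared only per length, so CPM was divided by the longest annotated transcript. In input WT, Grin2c (57.4 CPM per kb) and Grin1 (53.9) led with overlapping ranges, and their order swapped when coding length was used. Grik5 (26.8), Grik3 (8.07), Grik2 (5.99) and Grik1 (4.54) followed without overlap. Grin3a (3.66) and Grin2d (3.27) overlapped, and Grin2a (0.795) and Grin2b (0.0971) came last. With coding length Grin3a (8.06 CPM per kb) stood above Grik1 (5.83) without overlap, and Grin2a and Grin2b stayed last at 2.65 and 0.525. In TRAP WT the order was Grin1 (47.3 CPM per kb) and Grik1 (34.8), whose ranges overlapped, then Grin2c (13.9), Grik5 (9.91) and Grik3 (2.30), each apart from the next. Grik2 (0.946), Grin2d (0.729) and Grin3a (0.602) overlapped their neighbours, as did Grin2a (0.0283) and Grin2b (0.0188). The order in TRAP KO began alike, Grin1 (46.5), Grik1 (31.8) and Grin2c (11.1), with Grin1 and Grik1 apart and Grin2c overlapping Grik5 (9.89).

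Grin2c made up most of the summed per-kb level of the 4 GluN2 genes in every group, 93.2% ± 0.46 (SD, n = 4) in input WT, 91.4% ± 1.54 (n = 3) in input KO, 94.7% ± 0.65 (n = 3) in TRAP WT and 90.0% ± 2.84 (n = 4) in TRAP KO. Grin2d held most of the rest in input, 5.31% in WT and 6.45% in KO, where Grin2a held 1.3% and 1.87%. In TRAP it was Grin2d that held nearly all of the rest, 4.96% in WT and 9.56% in KO. These input shares depended on the length used. With coding length the Grin2a share was larger in both input groups, though below that of Grin2d (4.54% beside 6.44% in input KO). The TRAP KO libraries spanned 7.17% to 13.4% for Grin2d and the TRAP WT libraries 4.60% to 5.49%, with no overlap. The highest share, in TRAP KO replicate 4, came from the library with the lowest Grin2d of that group (4.82 CPM) and the lowest Grin2c (28.0 CPM), so the shares follow Grin2c as well as Grin2d. The summed GluN2 level per Grin1 level was 1.15 ± 0.13 in input WT and 1.09 ± 0.12 in input KO. It was 0.312 ± 0.039 in TRAP WT and 0.258 ± 0.077 in TRAP KO. The highest TRAP library (0.356) was below the lowest input library (0.985).

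For the kainate family the shares were taken with Grik4 included, since Grik4 and Grik5 encode the 2 high-affinity subunits. Grik1 went from 9.72% ± 1.68 (SD, n = 4) of the summed per-kb level in input WT to 57.9% ± 10.7 (n = 3) in TRAP WT, and from 9.95% ± 0.28 (n = 3) to 59.8% ± 5.61 (n = 4) in KO. Grik5 went the other way, with 56.8% ± 2.47 in input WT, 18.5% ± 7.27 in TRAP WT, 54.6% ± 2.91 in input KO and 18.6% ± 3.26 in TRAP KO. Grik4 went from 3.55% in input WT to 17.7% in TRAP WT, and from 3.52% to 16.0% in KO. The level of Grik1 per Grik2 was 0.766 in input WT (0.625 to 0.943 over libraries) and 40.6 in TRAP WT (22.2, 26.1 and 73.5). Without TRAP WT replicate 3 the TRAP mean was 24.1, and with coding length the ratios were 0.284 in input WT and 15.0 in TRAP WT (8.95 without that library). The change of shares held with coding length, where Grik1 took 6.29% in input WT and 48.0% in TRAP WT. With that length Grik4 stood above Grik5 in TRAP, at 23.2% against 16.3% in WT and 21.2% against 16.6% in KO.

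**Figure D3:**
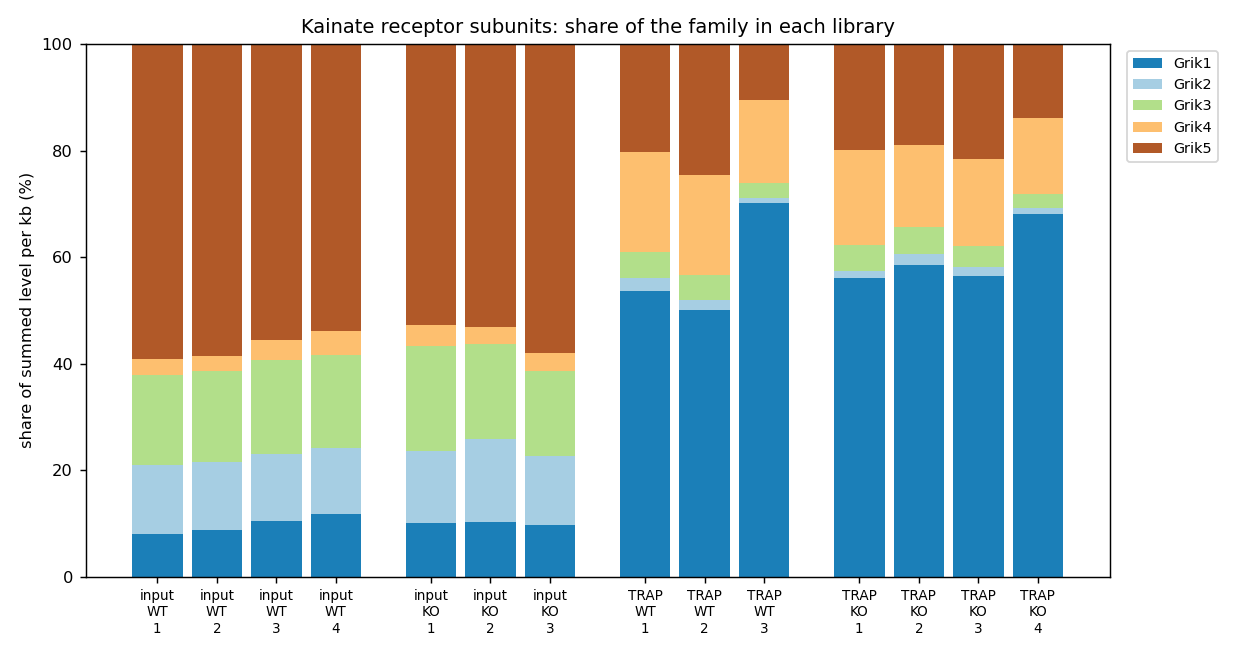
Share of each kainate receptor gene in the summed level per kilobase of the family (%), 1 bar per library, ordered by group and replicate. Grik5 is the largest share in all 7 input libraries (52.8% to 59.1%) and Grik1 in all 7 TRAP libraries (50.0% to 70.1%).

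Of 28 genes of the receptors' partners (other subunits, auxiliary proteins, scaffolds, trafficking proteins, kinases and phosphatases, and co-agonist supply), 10 were higher, 14 lower and 4 not past the test in WT TRAP against input, and 9, 14 and 5 in KO. The share of partners that rose was near that of all genes tested (37.0% in WT and 36.3% in KO). The share that fell, 14 of 28, was above that of all genes tested (38.5% in WT and 39.6% in KO), a difference that was not tested. Grik4, which encodes the other high-affinity kainate subunit, rose, as Grik1 did. It had 9.77 ± 1.71 CPM (SD, n = 4) in input WT and 59.2 ± 11.3 CPM (n = 3) in TRAP WT, a log2 fold change of 2.61 ± 0.16 (adjusted p = 6.35e-09), and 2.44 ± 0.17 in KO. Among the trafficking proteins, Kif17, a kinesin known to carry GluN2B-containing vesicles along dendrites, rose by 3.08 ± 0.15 (12.7 to 107 CPM). Lin7b, a PDZ protein of the complex that links to that kinesin, rose by 1.79 ± 0.12, while its paralogue Lin7a fell by 3.45 ± 0.17 (432 to 39.9 CPM), the lowest value of the list. Pick1 and Grip1, PDZ proteins that bind glutamate receptor tails, rose by 1.61 ± 0.08 and 1.56 ± 0.17.

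Both kainate auxiliary genes fell in TRAP in both genotypes. Neto1, a CUB-domain partner of GluK2 and of NMDA receptors, changed by -1.95 ± 0.33 in WT, from 2.95 to 0.789 CPM. Among scaffolds, Dlg1 (SAP97) fell by 2.36 ± 0.24, whereas 1 of the 4 scaffold genes rose and 2 did not pass the test in WT. In KO, 3 of the 4 did not pass. Of signalling partners, Rasgrf1, an exchange factor that binds GluN2B, fell by 2.55 ± 0.22, and Ptpn5 (STEP), a phosphatase that acts on GluN2B, fell by 1.90 ± 0.20. For D-serine, an NMDA receptor co-agonist, Srr, the enzyme that makes it, rose by 0.99 ± 0.20 in WT and 0.58 ± 0.20 in KO, and the transporter Slc7a10 fell by 2.07 ± 0.34 in WT. With library totals neither Srr call held, at 0.17 in WT (adjusted p = 0.439) and -0.15 in KO. The KO call was also lost with a mean count of at least 50 and without TRAP KO replicate 2, TRAP KO replicate 4 or input KO replicate 3, at 0.395 to 0.576. None of the 28 passed the test for genotype in either fraction.

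For each gene, the genes with the most similar pattern over the 14 libraries were taken from 5946 genes by Pearson's r of log2(CPM + 1), as a description: the libraries share the split into input and TRAP, which sets most of each r. Grik1 lay closest to Tm6sf1 (r = 0.998) and Cacna1g (0.998), a T-type calcium channel gene. Grin3a lay closest to S1pr1 (0.997) and Gabra6 (0.997), the latter one of the granule cell markers. Grin2c lay closest to Slc17a7 (0.995) and Kcnt1 (0.995), and Grik3 to Cbln3 (0.996) and Ppfia4 (0.994), where Slc17a7 and Cbln3 are granule cell markers. Grik2 was nearest to Ndst3 (0.997) and Cnr1 (0.996), Grik5 to Adgrl1 (0.990) and Cbln1 (0.990), and Grin2d to Clip1 (0.994) and Dusp5 (0.986). Grin2a was nearest to Rif1 (0.994) and Grin2b to Pgm2l1 (0.981) and Myo6 (0.981), although both genes rest on few TRAP counts. Grin1, which did not separate the fractions, had the weakest neighbours, Bcan (0.840) and Tmem151a (0.811).

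In Astn2 KO against WT, none of the 10 subunit genes passed edgeR's quasi-likelihood test in TRAP or in input. DESeq2's Wald test called none of them in TRAP, where it called 0.0212% of all genes, and 2 in input (Grin1 and Grin2c), where it called 1.83%. In TRAP no subunit gene had an unadjusted p under 0.05, a level that 1.5% of all 14145 genes reached, and 0.00707% of genes passed with adjustment. In input, 4 of the 10 (Grin1, Grin2b, Grin2c and Grik5) had an unadjusted p under 0.05, beside 13.7% of all 15997 genes, and 0.0188% passed with adjustment. The KO libraries were all below the WT libraries for 2 of the 10 in input (4.24% of all genes) and all above for 1 (6.1% of all genes). In TRAP none of the 10 was lower without overlap (2.69% of all genes) and 1 was higher without overlap (1.8% of all genes).

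**Figure D4:**
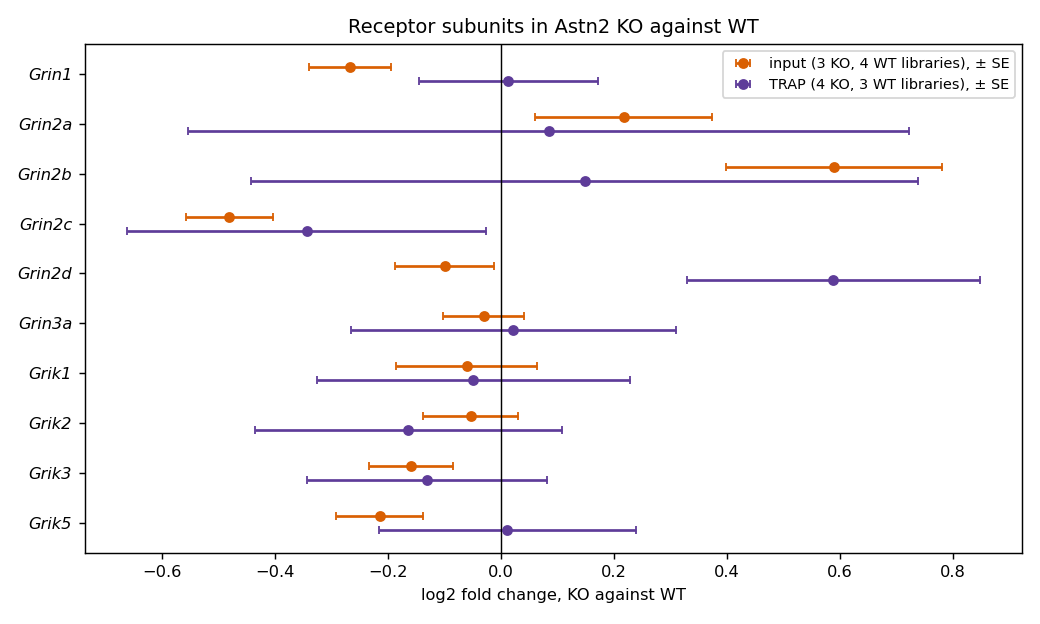
Log2 fold change of KO against WT for each subunit gene in input and in TRAP (points, with SE bars). Grin2c (-0.48) and Grin1 (-0.27) lie lowest in input, Grin2b (0.59) highest in input and Grin2d (0.59) highest in TRAP, and none passed the test after adjustment.

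The values for Grin2c in input were given above: 309, 272, 278 and 265 CPM in WT and 210.5, 249.8 and 192 CPM in KO, with no overlap. The log2 difference was -0.48 ± 0.08 (95% interval -0.66 to -0.31, adjusted p = 0.101 by edgeR's quasi-likelihood test). The direction was the same within each sex, since the female WT library had 309 CPM and the female KO libraries 210.5 and 249.8 CPM, and the male WT libraries had 265 to 278 CPM and the male KO library 192 CPM. The adjusted p ran from 7.43e-07 with DESeq2's Wald test, and 0.0165 without input KO replicate 2 (a setting in which 0.982% of all genes passed), to 1.0 with all 14 libraries in one fit. In TRAP the Grin2c libraries of both genotypes overlapped, with a difference of -0.34 ± 0.32 (-1.07 to 0.38, adjusted p = 1.0). The summed granule cell markers in input, 6331 to 6624 CPM in KO and 6341 to 6713 CPM in WT, overlapped. Of the 10 markers none passed the test for genotype in input, and 4 had an unadjusted p under 0.05: Slc17a7 (-0.24) and Gabrd (-0.22), both lower in KO without overlap, Cbln3 (-0.24), and Neurod1 (0.14), higher without overlap. Their part in the Grin2c difference was not tested.

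Grin1 in input was also lower in KO without overlap, 188.5 to 192.0 CPM against 217 to 244 CPM, at -0.27 ± 0.07 (-0.43 to -0.10, adjusted p = 0.218). It passed only with DESeq2's Wald test (adjusted p = 0.0343) among the 17 alternatives. In TRAP the difference was 0.01 ± 0.16 (-0.35 to 0.38, adjusted p = 1.0). The exons of Grin1 overlap those of the antisense gene Grin1os on the other strand, and the counting strand is not given in the sources used here, so reads of these genes may not be fully told apart. Grin1os was looked up after its values were seen. It had 7.19, 6.29, 6.40 and 5.96 CPM in input WT and 3.54, 4.20 and 2.79 CPM in input KO, again with no overlap, a difference of -1.05 ± 0.13 (adjusted p = 0.0672). In TRAP it had at most 13 counts in any library.

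Because Grin1 and Grin2c were the 2 genes with lower levels in every input KO library, and stood at -0.18 and -2.05 in WT TRAP against input, their start regions are shown, 250 bases before to 50 after the annotated start, from RefSeq (GRCm38.p6). Of the 10 genes, 6 had such a window: Grin1, Grin2c, Grin2d, Grik2, Grik3 and Grik5. Capitals mark the letters AGGTCA (a nuclear receptor half-site) and GGGCGG (a GC box), searched on both strands, and all matches shown lie on the printed strand.
Grin1 (chr2:25319138-25319437, minus strand): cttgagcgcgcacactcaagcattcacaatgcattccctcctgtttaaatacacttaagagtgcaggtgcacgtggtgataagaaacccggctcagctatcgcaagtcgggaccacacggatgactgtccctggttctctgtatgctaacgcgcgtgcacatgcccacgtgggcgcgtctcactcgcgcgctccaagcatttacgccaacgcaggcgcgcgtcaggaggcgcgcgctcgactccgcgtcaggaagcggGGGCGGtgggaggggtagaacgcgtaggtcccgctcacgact
Grin2c (chr11:115267194-115267493, minus strand): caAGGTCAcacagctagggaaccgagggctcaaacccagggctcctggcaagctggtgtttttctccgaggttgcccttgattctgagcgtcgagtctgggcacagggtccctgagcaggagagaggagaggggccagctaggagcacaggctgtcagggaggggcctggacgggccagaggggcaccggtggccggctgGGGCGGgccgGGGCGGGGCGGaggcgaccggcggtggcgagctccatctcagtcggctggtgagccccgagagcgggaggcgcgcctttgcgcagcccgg
The Grin1 window holds 1 GGGCGG and no AGGTCA, at 60.7% GC. The Grin2c window holds 1 AGGTCA and 3 GGGCGG, of which the last 2 share a base, at 70.0% GC. Over all 32851 windows of that length, 16.3% hold AGGTCA and 35.7% hold GGGCGG, and the median GC content is 52.7%. A match is a string of letters and not a measured binding site.

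**Figure D5:**
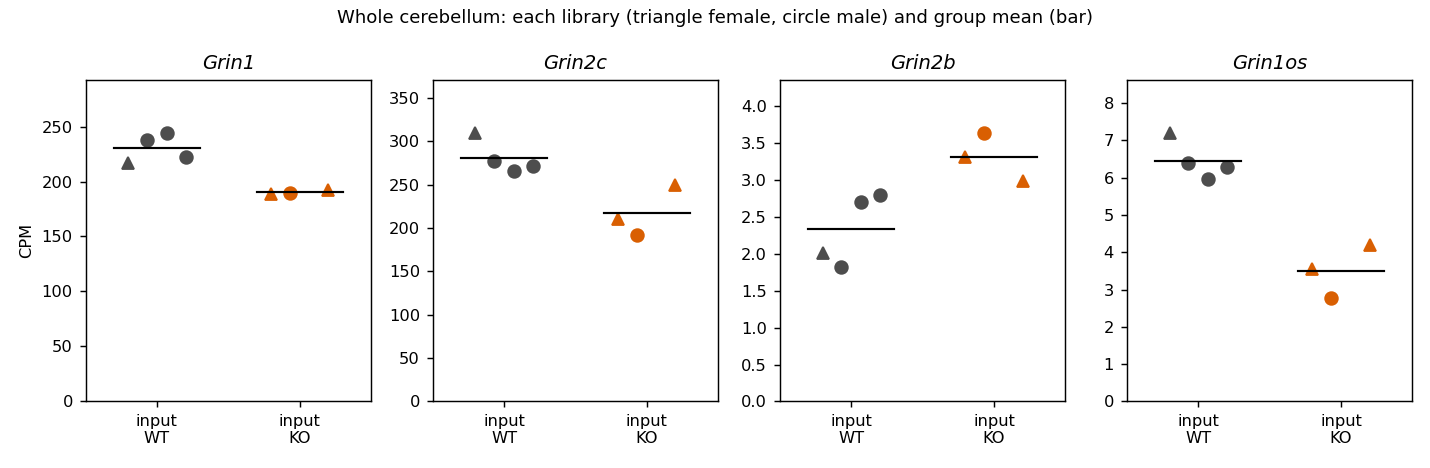
Level in CPM (axes from 0) of Grin1, Grin2c, Grin2b and the antisense gene Grin1os in each input library, by genotype, with sex as the marker shape and the group mean as a bar. For Grin1, Grin2c and Grin1os every KO library is below every WT library, and for Grin2b every KO library is above, in both sexes.

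Grin2b in input was higher in KO without overlap, 2.99 to 3.63 CPM against 1.82 to 2.80 CPM in WT, at 0.59 ± 0.19 (0.16 to 1.02, adjusted p = 0.26). Grik5 in input overlapped between the genotypes (92.9 to 99.3 CPM in KO, 98.4 to 122 CPM in WT), at -0.22 ± 0.08 (adjusted p = 0.29). The other 6 genes had input differences between -0.16 and 0.22 and overlapped. For Grik1, the gene highest in TRAP against input, the KO against WT difference in TRAP was -0.05 ± 0.28, with a 95% interval of -0.68 to 0.58. Its sign turned, to 0.34, without TRAP WT replicate 3.

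Grin2d in TRAP was the 1 gene higher in every KO library, 4.82 to 7.92 CPM against 3.38 to 4.51 CPM in WT, at 0.59 ± 0.26 (-0.004 to 1.18, adjusted p = 1.0). Its input difference was -0.10 ± 0.09. The test of whether the genotype effect differed between the fractions gave 0.66 ± 0.24 for Grin2d (0.14 to 1.18, adjusted p = 0.999). No other subunit gene had an unadjusted p under 0.05 in that test, and 0.0% of the 16042 genes passed it after adjustment by edgeR's quasi-likelihood test, with 430 genes at an unadjusted p under 0.05. Without TRAP KO replicate 3, the library with the highest Grin2d, the TRAP difference was 0.34. The TRAP libraries' summed interneuron markers were 71.1 to 119 CPM in WT and 78.1 to 136 CPM in KO, and their part in the Grin2d values was not tested.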

How the data were processed

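RNA sequencing was done on 14 libraries of mouse cerebellum. The authors deposited raw read counts per gene, 1 column per library, with Entrez identifiers as row names. The submitters' processing notes list Salmon 0.8.2 and mm10 without saying what each was used for, so the counts may be rounded estimates; the annotation and the strand setting are not given in the sources used here. Of the 24100 genes, 2930 had no count in any library and 24045 had a RefSeq symbol. Gene positions and lengths come from GENCODE M21 (GRCm38). Of 31-base words in the members' transcripts, at most 8 were shared by any pair, so little of their sequence could be miscounted between them.

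The genes and lists were chosen with earlier results of these data known. The text names all 10 members, Astn2 and, of the partner list, at most 6 rising and 6 falling genes, those furthest from 0 among genes past the threshold in WT TRAP against input; similar genes are the 2 with the highest r among genes with a mean log2(CPM + 1) of at least 5.

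CPM values divide each deposited count by the library total times its TMM factor. Tests used edgeR 4.0.16 in R 4.3.3 (quasi-likelihood F test, two-sided, TMM, filterByExpr, Benjamini-Hochberg adjustment over all genes tested, threshold 0.05) with sex as a covariate, and all adjusted p-values are from that fit unless another tool is named. All 14 libraries entered the fit for TRAP against input and for the interaction of genotype and fraction; KO against WT used the 7 libraries of each fraction. SEs were derived from the fold change and its F statistic, and 95% intervals use the t quantile of the fit. The scripts were tested on simulated data. Alternatives were DESeq2 1.42.0 (Wald test, size factors), limma 3.58.1 with quality weights, library totals, no filter, a mean count of at least 50, no sex covariate, length offsets (loess span 0.3), a replicate block and leaving out each library. Replicates of a group differed beyond sampling noise (chi-square per degree of freedom from 8.63), and each was counted as 1 sample. That spread does not show whether libraries come from separate animals. Input and TRAP libraries were not paired in the main fit. Counting floors cover counting error only. Sequences were matched by symbol to RefSeq start regions.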

Additional observations from a re-analysis of the deposited data

How the results depend on the processing

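In TRAP against input, all 9 called genes of WT and of KO kept their direction in every alternative run, and only the WT call of Grin2b was lost (length offsets, -0.99). Grin1 turned in WT with length offsets (0.084) and in KO with library totals (-0.689) and a mean count of at least 50 (-0.144), and ran from -0.022 to 0.101 in KO when 1 library was left out. Grin1 in WT passed the threshold with library totals (-1.0), a mean count of at least 50, quality weights and without TRAP WT replicate 3. Srr lost its calls with library totals, at 0.169 in WT and -0.153 in KO, and its KO call under 5 further alternatives, the replicate block (0.492) among them. The cause of these shifts was not tested. In KO against WT and the genotype by fraction test, no subunit gene passed under any alternative in TRAP or for the interaction; in input, 2 passed with DESeq2's Wald test (Grin1 and Grin2c; 1.83% of all genes) and 0 to 1 when a library was left out (Grin2c without input KO replicate 2; 0.982% of all genes). Differences near 0 changed sign, none of them past the threshold. In TRAP these were Grin1 with all 14 libraries (-0.004) and no sex covariate (-0.018), Grik5 with all 14 libraries (-0.007), length offsets (-0.001) and quality weights (-0.018), Grin2a with length offsets (-0.03) and quality weights (-0.042), Grin3a with the same 2 settings (-0.05 and -0.078), Grin2b (-0.511), Grik1 (0.222) and Grik3 (0.052) with quality weights, and Grik1 with library totals (0.004). In input these were Grik1 with all 14 libraries (0.052) and Grik2 with no sex covariate (0.034). Leaving out 1 library, the TRAP ranges were -0.075 to 0.108 for Grin1, -0.08 to 0.535 for Grin2a, -0.346 to 0.879 for Grin2b, -0.154 to 0.305 for Grin3a, -0.289 to 0.343 for Grik1, -0.397 to 0.053 for Grik2, -0.321 to 0.054 for Grik3 and -0.243 to 0.173 for Grik5. The input ranges were -0.3 to 0.085 for Grin2d, -0.058 to 0.006 for Grin3a, -0.231 to 0.16 for Grik1 and -0.106 to 0.015 for Grik2. With coding length, Grin2c made up 90.8% of the GluN2 level in input WT, 87.9% in input KO and 93.9% in TRAP WT. Same-numbered input and TRAP libraries correlated at 0.292, 0.243 and 0.0981 in WT and 0.225, 0.225 and -0.125 in KO, so not every pair exceeded 0.1 and the numbers were not taken as pairs. As a hint from the data, 6 of 6 input and 5 of 6 TRAP libraries with a shared number correlated best with their own number, all but TRAP KO replicate 3. A replicate block, used in place of the sex covariate, left 9 members called in TRAP against input in each genotype and 0 in KO against WT. For TRAP against input it joined input and TRAP libraries of the same genotype and number, with replicates 1 to 3 only. For KO against WT it joined KO and WT libraries of the same number, which no label links. With that KO against WT block Grin2a was -0.141 and Grik3 0.083 in TRAP, and Grik1 0.023 and Grik2 0.014 in input. Depth limits Grin2a and Grin2b most, with 2 to 21 counts in each TRAP library.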
